A study of Mus musculus with 12 samples.

Results

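The genes described here are 6 mouse genes whose products belong to the actin-like and perinuclear theca proteins of the sperm head: Actl7a, Actl7b, Actl9 and Actrt2, which encode relatives of actin, Capza3, which encodes an alpha subunit of the actin capping protein made in male germ cells, and Cylc1, which encodes cylicin 1. They were chosen by name, as all probe sets annotated to one of these symbols alone, which gave 7 probe sets for 6 genes out of 18193 genes with a probe set of their own. Actl9 had 2 probe sets and each other gene had 1. All 6 genes passed the filter on low values, and the tests were made over 14197 genes unless another processing is named.

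Total RNA was measured on 12 single-colour Affymetrix arrays in 4 groups of 3. Fetal primordial germ cells (PGC) came from the genital ridge of BDF1 male fetuses at E12.5, and PGC-like cells (PGCLC) were taken at day 6 of differentiation in vitro. Round spermatids (RS) came from the testis of BDF1 male mice at 3 weeks, and spermatid-like cells (SLC) were made in vitro. The labels call the 3 arrays of a group biological replicates and say that cells were collected by FACS, without the gate; they give no strain, sex or line for the in vitro cells and no culture time for SLC. They name no transgene, deleted gene or agent for any group, so the groups differ in stage and in origin.

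The labelled identities were checked against marker genes. The summed signal of 6 PGC markers such as Pou5f1 and Dppa3 was 41698 to 42701 units on PGC arrays and 30353 to 39133 on PGCLC arrays, against 415 to 541 on RS arrays and 430.3 to 530.3 on SLC arrays, with Nanog and Sox2 at the floor on all arrays of both spermatid groups. The summed signal of 13 spermatid markers such as Prm1 and Tnp1 was 221760 to 237100 on RS arrays and 161740 to 166260 on SLC arrays, against 259.5 to 416 on the arrays of both early groups. Arrays of a group correlated across genes, which do not count as replicates, at a Pearson's r of 0.976 or more in PGC, RS and SLC, and down to 0.914 in PGCLC. Single markers differed more between PGCLC arrays than the sum. On replicates 1, 2 and 3 Dppa3 read 3567, 19189 and 11456.5 units, and Nanog 10147, 2985 and 8247. The summed signal of 5 Leydig markers was 157, 2455 and 1081 units on these arrays, against 832 to 1324 on PGC arrays. The PGCLC arrays were therefore not alike, and they enter every comparison with PGCLC.

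The perinuclear theca is a condensed layer of protein that wraps the sperm nucleus, holds the acrosome to it in front and lies under the plasma membrane behind. It is assembled during spermiogenesis, the shaping of the haploid spermatid into a sperm cell, when actin-like proteins, capping protein and the basic cylicins gather around the nucleus and under the growing acrosome. Loss of ACTL7A or ACTL9 is known to detach the acrosome and to impair egg activation, and mice without cylicins or with mutant CAPZA3 make misshapen sperm heads.

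All 6 genes were high in both spermatid groups. In both early groups 5 of them lay under the table median of 92.0 units on every array, and Actl7b lay around it. Values under 30.7 units, the 25th percentile of the table, were set to that floor before log2 transformation, since signals that low have no order. Where the dimmer group touched the floor, the fold is a lower bound and is given as "at least". The plot of signal on each array shows the pattern.

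**Figure D1:**
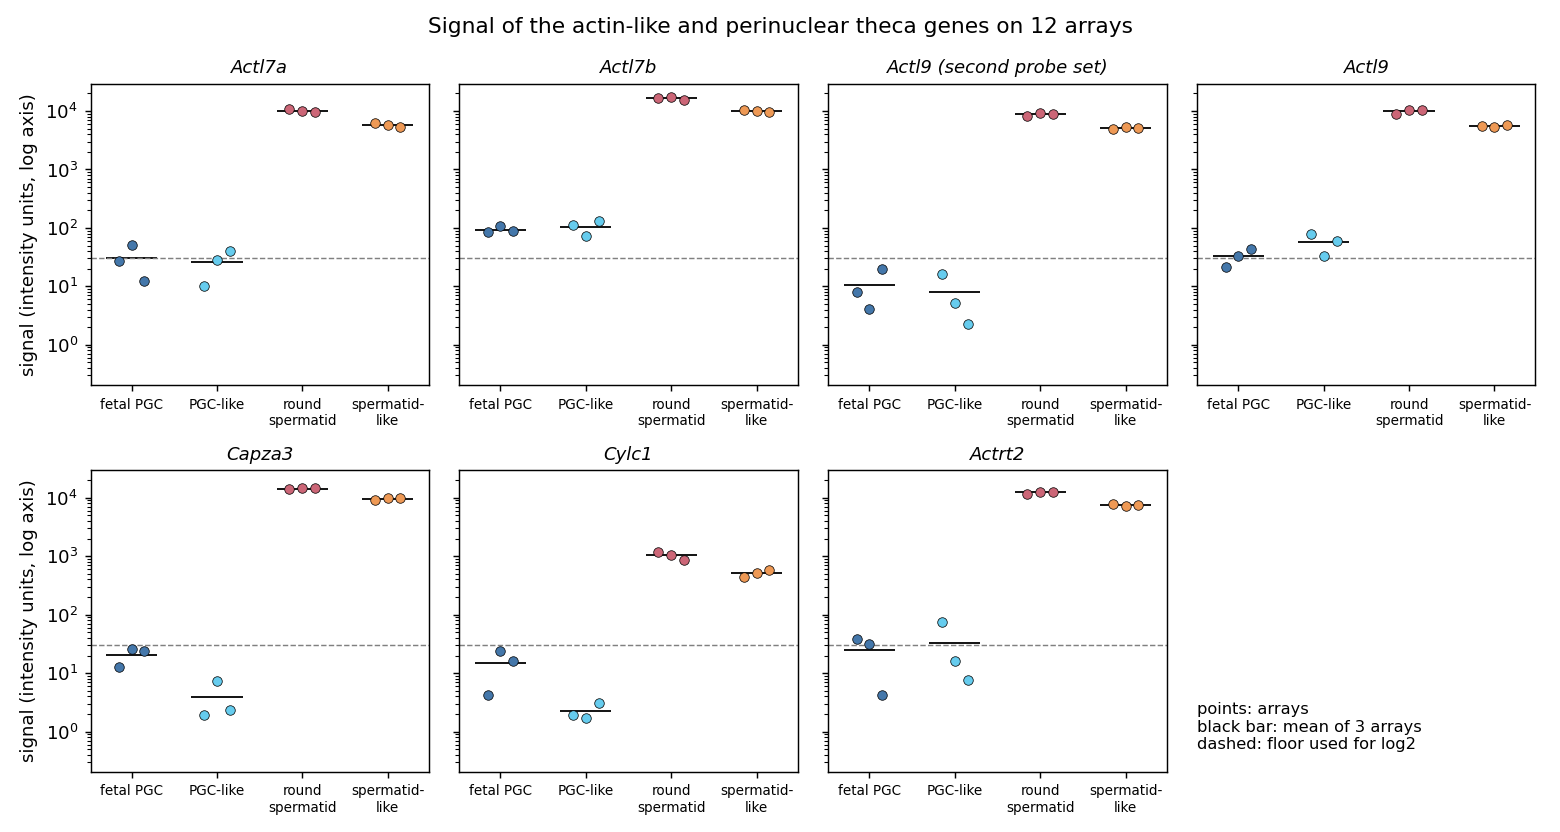
Signal (intensity units, log axis) of the 7 probe sets on the 12 arrays, with points for arrays, black bars for the mean of 3 arrays and a dashed line for the floor of 30.7 units. Every RS array lies above every SLC array, and both lie far above the PGC and PGCLC arrays in all 7 panels.

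Actl7a encodes an actin-like protein of the layer between acrosome and nucleus. Its signal was 10764, 10145 and 9457 units on the RS arrays and 6286, 5667 and 5395 on the SLC arrays. On PGC arrays it was 26.8, 51.6 and 12.4 units, and on PGCLC arrays 10.1, 27.9 and 39.9. The spermatid groups did not overlap with each other or with the early groups. RS exceeded PGC by at least 277-fold (log2 8.11, SE 0.20, limma adjusted p = 3.43e-12) and SLC exceeded PGCLC by at least 172-fold (log2 7.43, SE 0.20).

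Actl7b, its neighbour on chromosome 4, encodes a second actin-like protein of spermatids. It stood at 16514, 17168 and 15593 units in RS and at 10517, 10116 and 9631 in SLC. It was the one gene of the 6 with no array at the floor in either early group, at 84.2, 107 and 88.8 units in PGC and 111, 71.3 and 131 in PGCLC, which straddles the table median of 92.0. Because its early signal lay above the floor, its stage differences are given without "at least". They were 177-fold for RS against PGC (log2 7.47, SE 0.19) and 99.8-fold for SLC against PGCLC (log2 6.64). Detection calls were not used, so whether this early signal exceeds background was not tested.

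Actl9 encodes the partner of ACTL7A at the inner acrosomal side of the nucleus. Its brighter probe set read 9038, 10357 and 10256 units in RS and 5608, 5317 and 5674 in SLC, and the other one 8208, 9263 and 8742 in RS and 5008, 5258 and 5196 in SLC. The brighter probe set was at 21.7, 33.3 and 43.7 units in PGC and 78.4, 32.9 and 60.7 in PGCLC, whereas the other was under the floor on all 6 of those arrays. The probe sets therefore disagreed about a trace of signal in the early groups and not about the spermatids. For the brighter one, RS exceeded PGC by at least 278-fold (log2 8.12, SE 0.26) and SLC exceeded PGCLC by 103-fold in the fit of log2 signals, or 96.5-fold as a ratio of means.

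Actrt2 encodes the actin-related protein ARP-T2, found in the calyx, the rear part of the theca. Its signal was 11694, 12804 and 12774.5 units in RS and 7936, 7184 and 7513 in SLC. PGC arrays gave 37.9, 31.3 and 4.21 units, and PGCLC arrays 75.3, 16.2 and 7.57, with replicate 1 alone above the floor. RS exceeded PGC by at least 374-fold and SLC exceeded PGCLC by at least 182-fold.

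Capza3 varied least of the 6 between RS arrays, with an SD of 0.037 on the log2 scale. It read 13874, 14475.5 and 14529.8 units in RS and 9303, 9917 and 9834 in SLC, and was under the floor on all 6 early arrays, between 1.94 and 26.0 units. RS exceeded PGC by at least 465-fold (log2 8.86, SE 0.093, limma adjusted p = 6.62e-15), and SLC exceeded PGCLC by at least 315-fold.

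Cylc1 encodes a basic, lysine-rich protein of the calyx, and the gene is X-linked. It read 1193, 1061 and 854 units in RS and 449, 516 and 576 in SLC, and lay under the floor on all 6 early arrays. The stage difference in vivo was at least 33.4-fold (log2 5.06, SE 0.18) and in vitro at least 16.6-fold (log2 4.06, SE 0.18). The signals of different probe sets cannot be set against each other, so neither can these bounds and those of the other genes.

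A gene was called at 2-fold where limma's adjusted p was under 0.05 and the change at least 2-fold. All 6 genes were called higher in both stage comparisons. All of them but Actl7b were under the table median on every early array, so they passed the filter on low values only through the spermatid arrays. Their direction in these comparisons is therefore no independent evidence. Of all 14197 genes, 31.5% were called higher and 37.2% lower in RS than in PGC, and 29.4% were called higher in SLC than in PGCLC. The spermatid arrays lay above every early array for all 6, beside 38.8% of all genes in vivo and 37.7% in vitro. The median difference of the 6 was 8.12 on the log2 scale in vivo and 7.05 in vitro, against -0.22 and -0.07 over all genes.

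In the early groups 0 of the 6 passed an adjusted p of 0.05 between PGCLC and PGC by limma, beside 16.7% of all genes higher and 13.5% lower, and 10.3% and 1.60% at 2-fold. By limma 1 gene, Actl9, was under 0.05 before adjustment (log2 0.60, adjusted p = 0.0978), and its other probe set was at the floor throughout. Capza3 and Cylc1 were at the floor on every array of both groups, so they have no measured difference there.

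Promoter sequences of RefSeq, build GRCm38.p6, were matched for 5 of the 6 genes, all but Capza3. The 120 bases before the annotated start of each are printed because these genes were high in the same groups, with matches to a searched motif in capitals. The motifs were chosen after the sequences had been seen.
Actl7a, chr4:56743302-56743421, plus strand: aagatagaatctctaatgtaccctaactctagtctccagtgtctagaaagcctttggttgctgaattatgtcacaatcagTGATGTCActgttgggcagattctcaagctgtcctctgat
Actl7b, chr4:56741426-56741545, minus strand: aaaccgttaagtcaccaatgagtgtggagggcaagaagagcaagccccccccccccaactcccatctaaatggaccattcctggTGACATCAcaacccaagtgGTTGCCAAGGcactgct
Actl9, chr17:33432779-33432898, plus strand: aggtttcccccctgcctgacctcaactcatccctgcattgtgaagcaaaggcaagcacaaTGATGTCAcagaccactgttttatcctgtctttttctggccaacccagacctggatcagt
Cylc1, chrX:111110298-111110417, plus strand: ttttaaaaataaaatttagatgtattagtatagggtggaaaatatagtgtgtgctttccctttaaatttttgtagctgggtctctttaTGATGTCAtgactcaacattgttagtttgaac
Actrt2, chr4:154667868-154667987, minus strand: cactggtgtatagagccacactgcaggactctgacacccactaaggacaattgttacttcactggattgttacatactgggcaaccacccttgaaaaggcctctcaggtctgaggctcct

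The octamer TGATGTCA, searched on both strands over the 250 bases before the start, was present in 4 of these 5 promoters, those of Actl7a, Actl7b, Actl9 and Cylc1, where it began 40, 36, 60 and 32 bases before the start. In Actl7b it lay on the opposite strand and reads TGACATCA. It was present in 962 of 32851 promoters of the same length, or 2.93%, and within the last 100 bases in 1.96%. The octamer was chosen after these 5 sequences had been seen, and the last 100 bases hold all 4 matches. Setting 4 of 5 against these shares is therefore no test. Of the promoters of other theca and sperm head genes 3 of 22 held it, those of Spata46, Sun5 and Fam209, as did 3 of 13 promoters of spermatid markers, 1 of Tnp1 and 2 of Gapdhs.

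The palindrome TGACGTCA, the cAMP response element that the spermatid activator CREM binds, was in none of the 5 and in 1.55% of all promoters. The octamer TGATGTCA differs from this palindrome at 1 base, and binding to either was not tested. The letters GTTGCC, any 2 bases and GG, which the X-box of RFX factors holds, was found on the printed strand of Actl7b beginning 17 bases before the start, and in 1.83% of all promoters. TATAAA was found in 1 of the 5, that of Actl9, at 242 bases and, on the other strand, 130 bases before the start, outside the stretch printed, and in 12.4% of all promoters. The motifs do not overlap each other in these promoters. A match describes letters in this window, not a binding site, and Actl7a and Actl7b lie side by side and are read in opposite directions, each with its own match.

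SLC were compared with RS to see how closely the spermatid-like cells reached the level of spermatids from the testis. In SLC all 6 genes were between 49.6% and 67.8% of their mean RS signal on the authors' scaling. Capza3 was at 67.8%, from 14293 ± 364 units (SD, n = 3) to 9685 ± 333, Actl7b at 61.4%, Actrt2 at 60.7%, Actl7a at 57.1%, Actl9 at 56.0% and Cylc1 at 49.6%, from 1036 ± 171 to 514 ± 63.6. SLC and RS arrays did not overlap for any of the 6, a state that holds in the lower direction for 40.4% of all genes. In bulk RNA, fewer cells of a type and less RNA per cell cannot be told apart.

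By limma all 6 fell when only the adjusted p was required to be under 0.05, whatever the fold, beside 31.5% of all genes lower and 31.6% higher by that rule, and 1 of 6, Cylc1, was at least 2-fold lower, beside 3.32% lower and 23.5% higher. The log2 difference was -0.56 for Capza3 (SE 0.093, 95% interval -0.77 to -0.36, limma adjusted p = 0.000293) and -1.005 for Cylc1 (SE 0.18, interval -1.39 to -0.62, adjusted p = 0.000434). Between them lay Actl7b at -0.70 (SE 0.19, adjusted p = 0.00639), Actrt2 at -0.72 (SE 0.28, adjusted p = 0.0415), Actl7a at -0.81 (SE 0.20, adjusted p = 0.00407) and Actl9 at -0.83 (SE 0.26, adjusted p = 0.0151). The 6 intervals overlap and differences between genes were not tested, so no order among the genes is settled. Actrt2 no longer passed without any one of 8 of the 12 arrays, each RS and SLC array and PGC replicates 2 and 3, with an adjusted p of up to 0.103. Cylc1 was under 2-fold without RS replicate 1 (log2 -0.90), RS replicate 2 (-0.98) or SLC replicate 1 (-0.91). The other Actl9 probe set gave -0.76 (SE 0.11, adjusted p = 0.000114) where each probe set was tested on its own.

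The size of this difference depended on the scaling, and so did the calls. The authors scaled each array to a common trimmed mean, on which the median of all genes was -0.15 in SLC minus RS. With each array centred on its median instead, that median was -0.41 and 3 of the 6 genes, Actl7a, Actl9 and Cylc1, were at least 2-fold lower, beside 17.8% of all genes. Quantile normalization gave -0.29 for Capza3 and -1.29 for Cylc1 at its ends, and 3 of 6 genes, Actl7b, Capza3 and Cylc1, then passed, beside 40.6% of all genes lower with no minimum fold. When arrays were shifted so that the median of 13 spermatid markers was equal on RS and SLC arrays, an alternative chosen after seeing the data, 0 of 6 genes passed by limma after adjustment and 1 before it, and the differences ran from -0.02 for Capza3 to -0.46 for Cylc1 (adjusted p = 0.0795). On that scale the median of all genes was 0.39 and 1.77% of them were lower. No scaling turned the direction for any of the 6.

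**Figure D2:**
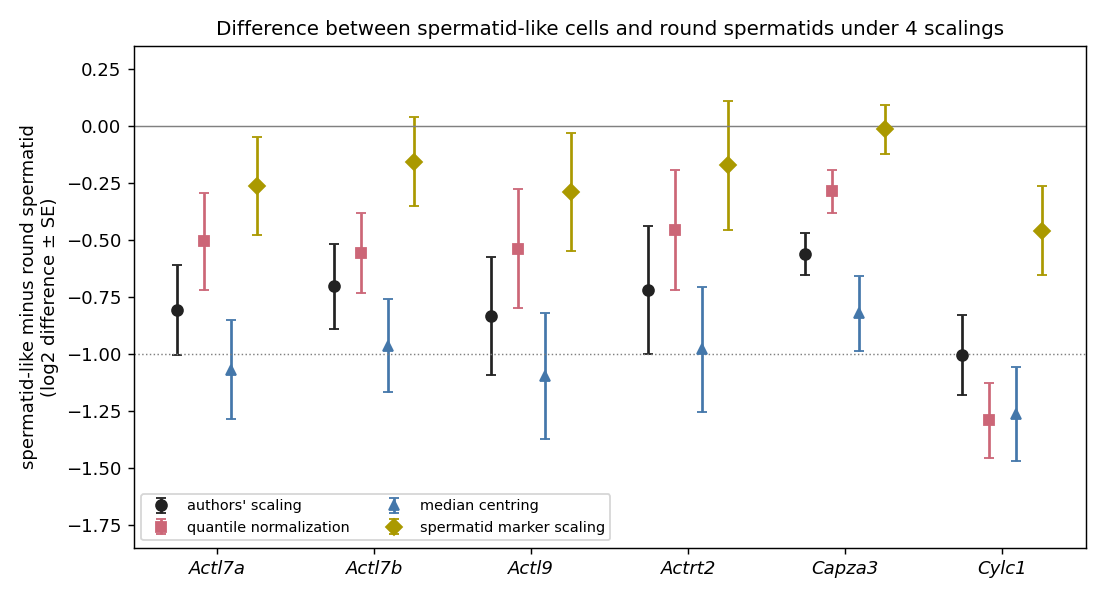
Difference between SLC and RS (log2, ± SE) of the 6 genes under 4 scalings; the grey line marks no difference and the dotted line a 2-fold lower signal. The differences are all below 0, deepest for Cylc1, and nearest to 0 once spermatid markers are made equal.

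Other genes of the same structures were lower in SLC too. Of 24 genes listed for the theca and sperm head, 23 were tested, 20 of them were lower in SLC than in RS with no minimum fold and 2 by at least 2-fold, with a list median of -0.82 beside -0.76 for the 6 genes. With no minimum fold, 22 were lower under median centring, beside 42.3% of all genes, and 16 under quantile normalization, beside 40.6%. Under spermatid marker scaling 2 genes of the list were lower, Cylc2 and Pick1, beside 1.77% of all genes. The largest falls were those of Cylc2, the other cylicin, from 1251 ± 228 to 550.4 ± 114 units (log2 -1.19, SE 0.19, limma adjusted p = 0.000252), and of Pick1, a PDZ protein of acrosome formation, from 1029 ± 98.5 to 491 ± 50.4 (log2 -1.07). Actrt1, another actin-related protein of the calyx, fell by 0.91 on the log2 scale, and Wbp2nl, a protein of the postacrosomal sheath, by 0.90. Actrt3 (log2 -0.89) and the calyx protein gene Ccin (log2 -0.86, adjusted p = 0.0469) fell too. Spaca1 (log2 -0.66), Zpbp (-0.63) and Gopc, a Golgi protein (0.06), did not pass. Under median centring Spaca1 and Zpbp passed as lower, and Gopc passed as lower under quantile normalization (-0.46) and as higher under spermatid marker scaling (0.60). The 13 spermatid markers had a median of -0.55, with 9 lower, and 8 spermatocyte markers a median of -0.77, with 6 lower, all with no minimum fold. Under median centring these counts were 11 and 6, under quantile normalization 5 and 5, and under spermatid marker scaling, which rests on the first list, 1 and 0.

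In vivo, 20 of those 23 genes were called higher in RS than in PGC and 1 lower, with a median of 7.15. Plcz1, the sperm phospholipase that starts egg activation, rose at least 349-fold to 10724 ± 321 units, Spag4, a SUN-domain protein of the nuclear envelope, at least 334-fold, Zpbp2, of the acrosomal matrix, at least 334-fold, and Rimbp3, a protein of the manchette, 273-fold. Cylc2 rose at least 40.3-fold, Ccin at least 126-fold, Actrt1 at least 48.5-fold and Actrt3 at least 142-fold. Hook1, a microtubule linker of the spermatid head, was lower in RS (log2 -1.11, from 4336 ± 90.9 to 2005 ± 91.9), and Gopc did not pass. The theca and sperm head list was chosen with spermatid genes in mind, so its direction is no independent evidence.

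Genes of the general actin machinery differed in direction. Beside the rise of Capza3, the somatic capping subunit gene Capza2 fell 7.74-fold from PGC to RS, from 3972 ± 160.2 to 514 ± 47.6 units, while Capza1 rose 2.38-fold and Capzb, the common beta subunit, 3.93-fold. In SLC Capza2 stood at 3569 ± 75.3 units, 6.96-fold above RS (log2 2.80, SE 0.11, limma adjusted p = 1.41e-09), where Capza1 was lower by 0.43 on the log2 scale and Capzb did not pass (log2 -0.47, adjusted p = 0.057). Under the 4 scalings Capza2 stayed higher in SLC, at log2 2.49 to 3.34, and Capza3 stayed below 0. Capza1 did not pass under quantile normalization (-0.12), and Capzb passed as lower under median centring (-0.73). Under spermatid marker scaling they stood at 0.11 and 0.08, and neither passed.

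Of 10 capping, profilin and cofilin genes tested, 5 rose at least 2-fold in SLC and 0 fell that far: Capg, a capping protein of macrophages (log2 3.96), Dstn and Gsn, which sever filaments (3.09 and 3.07), Capza2, and Pfn1, the common profilin (1.41). With no minimum fold 7 were higher and 2 lower, and the 5 at 2-fold stayed so under all 4 scalings. From PGC to RS, Dstn fell by 2.89 on the log2 scale and Pfn1 by 2.38, and 3 genes of the list rose and 5 fell at least 2-fold. Among 10 somatic actin-related proteins, the Arp2/3 subunit genes Arpc5 (3.31), Actr3 (1.94) and Arpc4 (1.18) rose at least 2-fold in SLC, beside 23.5% of all genes. The list median was -0.12, and with no minimum fold 4 of its genes were higher and 5 lower. Of other Arp2/3 subunit genes, Arpc1a was lower (-0.35) and Arpc2 higher (0.19). Actr8, of a chromatin remodeller, was lower without reaching 2-fold (-0.74). Arpc4 was under 2-fold under median centring (0.92) and quantile normalization (0.85), and Actr8 reached 2-fold under median centring (-1.002) and did not pass under spermatid marker scaling (-0.20). Arpc5, Actr3 and Arpc4 were lower in RS than in PGC, at log2 differences of -3.40, -3.38 and -2.16. Actr1a, a dynactin subunit, was higher in RS by 2.77. These comparisons share the RS arrays.

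Of 6 actin isoforms, 1 was higher and 1 lower in SLC than in RS with no minimum fold. Actb and Actg1, the cytoplasmic actins, did not pass in SLC against RS (log2 -0.07 and 0.09), but their calls changed with the scaling. Both passed as higher under quantile normalization (0.20 and 0.36) and spermatid marker scaling (0.48 and 0.63), and Actb passed as lower under median centring (-0.33). Acta2, the smooth muscle alpha actin, rose 13.4-fold in SLC, from 1162 ± 136 to 15545 ± 218 units. Actg2, the smooth muscle gamma actin, was high in both spermatid groups, at 8806 ± 109.96 units in RS and 6584 ± 311 in SLC beside 37.4 ± 10.5 in PGC and 29.3 ± 3.95 in PGCLC. Its step between SLC and RS was -0.42 (SE 0.16, adjusted p = 0.0378), and it did not pass under quantile normalization (-0.10) or spermatid marker scaling (0.12). Acta1 (log2 -1.05) and Actc1 (log2 -0.48) did not pass in SLC against RS, and from PGC to RS they rose by 1.74 and 1.22.

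**Figure D3:**
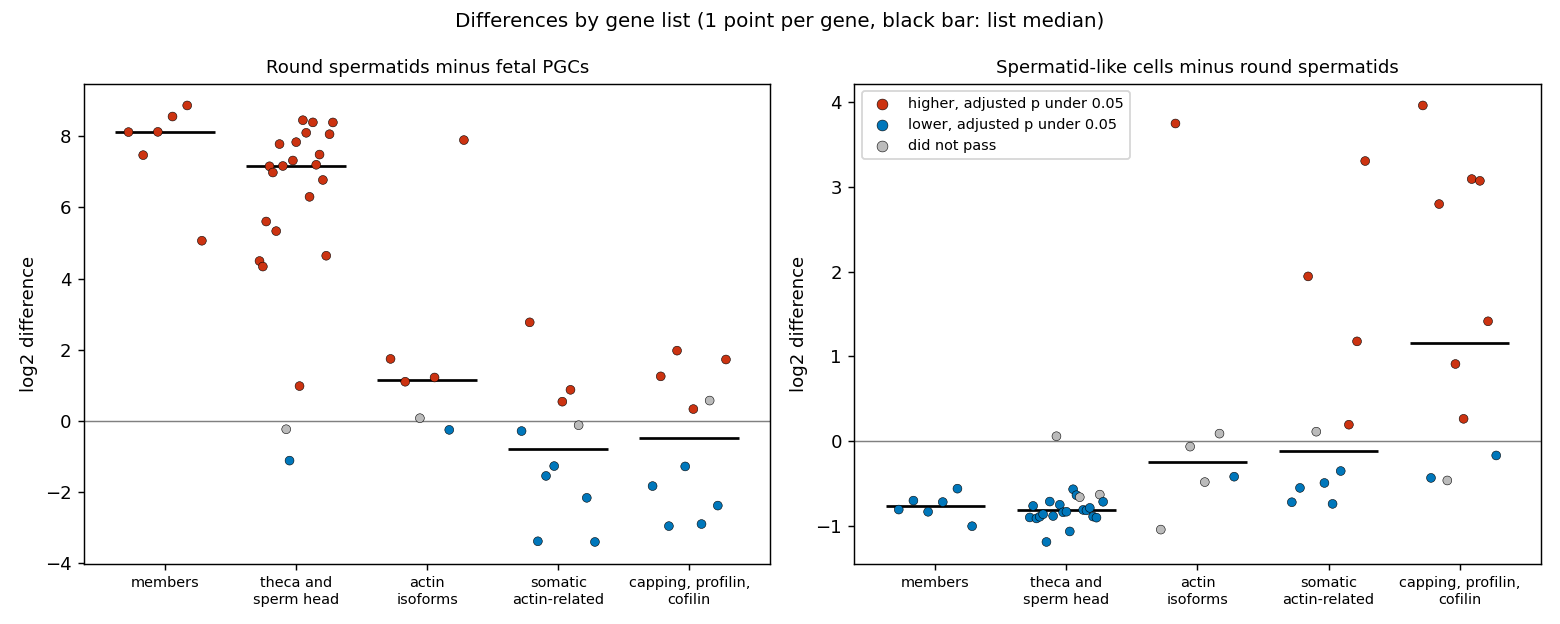
Log2 differences of single genes by list, RS minus PGC on the left and SLC minus RS on the right, with black bars for list medians; red and blue points passed the adjusted p, whatever the fold. The 6 genes and all theca and sperm head genes but Gopc lie below 0 on the right, at medians of -0.76 and -0.82, while the capping, profilin and cofilin genes spread up to 3.96.

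Summed signals of marker lists for other testis cells were higher on SLC arrays than on RS arrays, though not every marker rose. On SLC arrays the summed signal of 8 peritubular and mesenchyme markers was 65696 to 68025 units, against 2192 to 2628 on RS arrays, with 7 of 8 at least 2-fold higher. For 5 Leydig markers it was 7677 to 8090.4 against 222 to 331, with 4 higher, and in RS Cyp11a1 was at the floor on all arrays. For 7 Sertoli markers, of which 5 were tested and 4 called higher, it was 4414 to 4705.5 against 752 to 1068, and for 6 macrophage markers, of which 5 were tested and 2 called higher, 1302 to 1618 against 772 to 875. No marker of these lists was at the floor on all SLC arrays, but Cyp17a1 was at the floor on 2 of 3. Amh, Cldn11 and Ptprc did not pass the filter on low values. The Sertoli gene Rhox5 was lower in SLC (log2 -0.76, limma adjusted p = 0.037). It was at least 2-fold lower under median centring (-1.02) and quantile normalization (-1.28). The Leydig gene Cyp17a1 (-1.44) did not pass, nor did the macrophage genes Csf1r (-0.04), Adgre1 (-0.21) and Cd68 (1.13). Adgre1 passed as lower under quantile normalization (-0.81). The part of such RNA in the lower signal of the 6 genes was not tested. Acta2 stands both among the peritubular markers and among the actin isoforms.

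**Figure D4:**
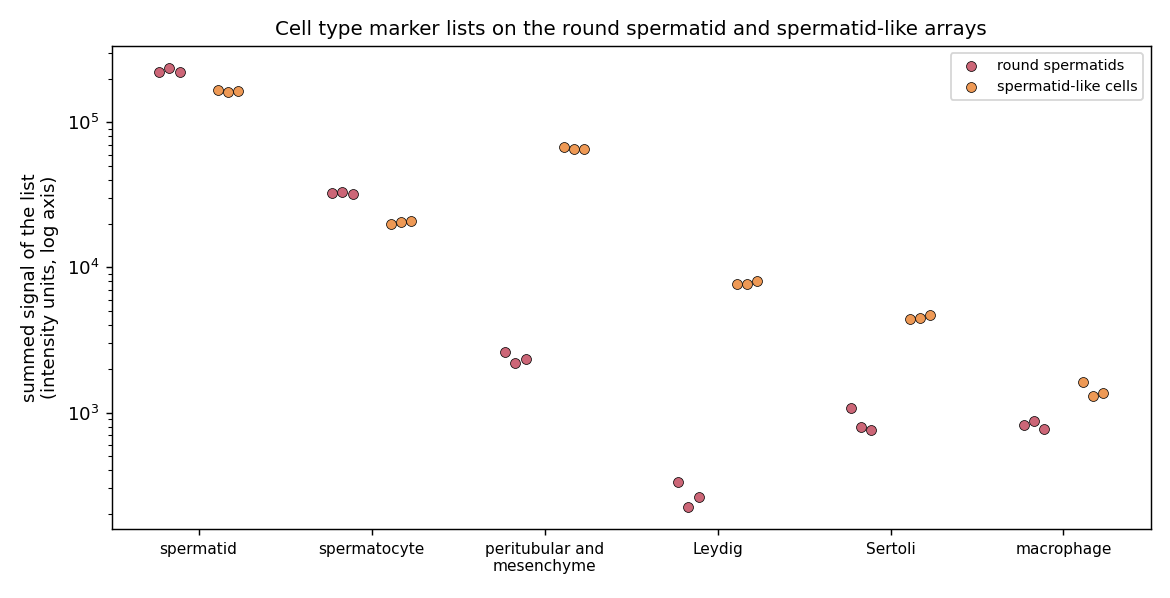
Summed signal (intensity units, log axis) of 6 cell type marker lists on the 3 RS and 3 SLC arrays, 1 point per array. Spermatid and spermatocyte lists are lower on SLC arrays, at 161740 to 166260 against 221760 to 237100 for spermatids, and the other 4 lists are higher there.

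The stage difference in vitro was set against that in vivo by the interaction, which is SLC minus PGCLC less RS minus PGC. It was negative for all 6 genes. With no minimum fold 5 of 6 passed the adjusted p, beside 21.8% of all genes lower, and at 2-fold Actl9 (log2 -1.44, SE 0.37, limma adjusted p = 0.00763), Actrt2 (-1.04, adjusted p = 0.048) and Cylc1 (-1.005, adjusted p = 0.00643), beside 11.1%. For Capza3 and Cylc1 the early groups were at the floor, so the interaction repeats their SLC minus RS difference. The other Actl9 probe set, at the floor in both early groups, gave -0.76 (SE 0.16) and likewise repeats its SLC minus RS difference. For the brighter one the interaction takes in a PGCLC minus PGC difference of 0.60, which did not pass (limma adjusted p = 0.0978). Actl7a (-0.69, adjusted p = 0.0627) did not pass. Actrt2 lost its call without any one of the PGC, RS and SLC arrays, 9 of the 12, at adjusted p of 0.054 to 0.0938, and was at -0.61 without PGCLC replicate 1. It also did not pass with no filter (adjusted p = 0.0757) or with no variance trend (adjusted p = 0.0586). With the floor at the 10th percentile Cylc1 stood at -0.15, Actrt2 at -0.73 and Capza3 at 0.73, and none of these passed. Without RS replicate 1, RS replicate 2 or SLC replicate 1 the 3 genes at 2-fold became 1, and without PGC replicate 1, RS replicate 2 or SLC replicate 3 the 5 became 3. Under quantile normalization both counts were 1, beside 13.8% of all genes lower at 2-fold and 23.1% with no minimum fold. Actl9 did not pass there (-0.94, limma adjusted p = 0.0584). Spermatid marker scaling, under which 0 of 6 genes passed in SLC minus RS, was not applied to the interaction.

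The genes whose pattern over the 12 arrays came nearest to each of the 6 were found by the root mean square difference of log2 signals, each gene centred on its own mean. Capza3 had the closest neighbours, Txndc2, a thioredoxin of the sperm tail, at 0.039, 4930544G11Rik at 0.046 and Tssk2, a testis kinase, at 0.057. Nearest to Actl7a were 1700013F07Rik (0.14), Trim17 (0.14) and Spaca3 (0.16), the last a lysozyme-like acrosomal protein, and nearest to Actrt2 were Adam2 (0.11), a sperm surface protein, Marchf11 (0.17) and Zbbx (0.21).

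Around Cylc1 lay Slc5a9 (0.089), Col6a4 (0.11) and 4933436I01Rik (0.13), around Actl9 Samd4 (0.15), Spag4 (0.20) and Tex35 (0.21), and around Actl7b Cst13, Spag6l and Tsga13 (0.19 to 0.20). Among the 6 themselves the closest pair was Actl7b and Actl9 at 0.32, and Cylc1 was farthest from the others, at 1.27 to 2.02. Each of these distances takes in the floor, which shortens the range of a gene with a lower spermatid signal. Capza3, Txndc2 and Tssk2 were at the floor on every PGC and PGCLC array, as were Cylc1, Slc5a9, Col6a4 and 4933436I01Rik. Distances within each of these sets therefore rest on the spermatid arrays alone.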

How the data were processed

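The deposited values were signal intensity per probe set on a linear scale. The submitters' processing notes name MAS5; its version is not given in the sources used here. The deposited intensity had a 2% trimmed mean of 500 units on every array, so each had been scaled to a common level. Detection calls and scan dates were not used here.

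Groups came from sample titles. Signals were floored at the 25th percentile (30.7 units) and log2 transformed. Of 45101 probe sets, 64 controls, 932 with several symbols and 9160 with none were left out. Probe sets above the table median (92.0 units) on at least 3 arrays were kept, and the brightest represented each of 14197 genes. Symbols were updated by Entrez identifier. One limma fit (limma 3.58.1, R 4.3.3; lmFit, eBayes with trend) used all 12 arrays and group means, so spread in the PGCLC arrays enters every SE. Benjamini-Hochberg adjustment ran over the 14197 genes. "Rose" and "fell" mean that the adjusted p was under 0.05. The same code was tested on simulated data.

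The genes, the 4 pathway and 8 marker lists and the naming rule (all 6 genes with named relatives, the 4 largest differences per list in SLC minus RS and RS minus PGC, and 3 nearest patterns) were chosen with earlier results of these data known. Other names were chosen after their values were seen. Alternatives covered scaling, floor, filter, probe sets, variance, replicate block and each array left out. Spermatid marker scaling, the fit without the PGCLC arrays and the lists under other scalings were added after seeing the data. With 3 arrays per group, their number limits the precision, and p values measure spread between these arrays only.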

Additional observations from a re-analysis of the deposited data

Results flagged for a closer look

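The stage difference in vitro differed from that in vivo, by the interaction term of the limma fit, for 5 of the 6 genes. The difference, in vitro minus in vivo on the log2 scale, was -0.82 for Actl7b (adjusted p = 0.0231), -1.44 for Actl9 (0.00763), -0.56 for Capza3 (0.00477), -1.005 for Cylc1 (0.00643) and -1.04 for Actrt2 (0.048). Early signals touched the floor on at least 1 array for 4 of these and on none for Actl7b. Capza3 and Cylc1 were at the floor on every early array, so their values repeat the SLC minus RS difference and are no separate stage result. Spermatid marker scaling was not applied to the interaction. With the floor at the 10th percentile Capza3 changed sign (log2 0.73), Cylc1 stood at -0.15 (adjusted p = 0.842) and Actrt2 at -0.73 (adjusted p = 0.588), while Actl7b (-0.82) and Actl9 (-1.60) still passed. Actrt2 also did not pass in 9 of the 12 fits with 1 array left out. Under quantile normalization 1 of the 6 genes passed as lower, beside 23.1% of all genes, and Actl9 did not pass (-0.94, limma adjusted p = 0.0584).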

How the results depend on the processing

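Every alternative applied to the stage comparisons kept all 6 genes at least 2-fold higher in RS than in PGC and in SLC than in PGCLC. In SLC minus RS the direction held throughout. The number at least 2-fold lower there, 1, was 3 under median centring, 0 with array weights, whose estimation stopped before it converged, and 0 under spermatid marker scaling, and 0 to 1 with 1 array left out. The number lower with no minimum fold, 6, was 3 under quantile normalization, 3 with the floor at the 10th percentile, 0 under spermatid marker scaling and 5 to 6 with 1 array left out. Median centring moved the share of all 2-fold calls that were higher in SLC from 87.6% to 53.5%, and quantile normalization to 54.3%.

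For PGCLC minus PGC, 1 gene was lower at the 10th percentile floor, by both rules (Capza3, log2 -1.29), and 2 were higher with no minimum fold with array weights, against 0 to 2 with 1 array left out, 2 without PGCLC replicate 2. Signs turned, with no call, for Actl7b (-0.18 under both median centring and quantile normalization, -0.0639 to 0.37 with 1 array left out), Actl7a (0.12 with array weights, -0.25 to 0.13) and Actrt2 (-0.12 with array weights, -0.11 to 0.54). For the interaction, the 3 genes at 2-fold were 1 under quantile normalization, 1 at each of the 10th and 40th percentile floors and 1 to 4 with 1 array left out. The 5 with no minimum fold were 1, 2 and 6 in the same order, and 3 to 6 with 1 array left out. Capza3 turned to 0.73 at the 10th percentile floor. Where no value shows the cause, it was not tested.

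Same-numbered arrays of different groups had deviations that correlated at -0.02 to 0.13, highest for RS and SLC replicate 1. Differently numbered arrays were not compared, so these values cannot decide whether the numbers pair arrays. With the replicate block, 6 genes stayed lower in SLC than in RS and 1 stayed at 2-fold. Fitted without the PGCLC arrays, an alternative chosen after seeing the data, these counts were 6 and 1.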
